A study of Mus musculus with 3 samples.

Results

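*Wfdc18*, *Lcn2*, *Lrg1*, *Slc38a4*, *Vim* and *Spock2* are 6 of the 27998 genes counted in single epithelial cells of the mouse small intestine. They were chosen by their UMI counts, which were high in adenoma cells of a mouse that had lost *Apc* and close to nothing in the adenoma cells of a mouse that had lost *Lef1* as well, so their difference between these groups is given below as a description. The cells were sorted for EpCAM, a surface protein of epithelium, from C57BL/6 mice given 2 tamoxifen doses of 2 mg when 7 to 8 weeks old. WT (wild type) was taken on day 21. *LApc* (*Lgr5-CreERT2;Apc fl/fl*) was taken on day 29. *LApcL* carried *Lef1 fl/fl* beside the alleles of *LApc* and was taken on day 21. Each genotype was 1 library, so genotype cannot be told apart from mouse and library, nor, for *LApc*, from day. The Cre is expressed from the stem cell gene *Lgr5*, so unrecombined epithelium remains beside the recombined cells. With 1 library per genotype no test was possible, and all intervals are 95% intervals of counting error only.

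*Apc* restrains Wnt signalling, and its loss lets beta-catenin act with the Tcf/Lef factors, of which Lef1 is one, so that stem cells form adenomas. *Wfdc18* encodes a small secreted protein with a WAP domain, a fold common among protease inhibitors. *Lcn2* encodes a lipocalin that binds bacterial siderophores and is made by epithelium in inflammation, and *Lrg1* encodes a secreted leucine-rich glycoprotein that takes part in TGF-beta signalling. *Slc38a4* encodes an amino acid transporter of system A. *Vim* encodes vimentin, the intermediate filament protein of mesenchymal cells, and *Spock2* encodes testican-2, a secreted proteoglycan.

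The genes lie on 5 chromosomes of GRCm38 (GENCODE M21), so they are not neighbours apart from a shared chromosome of *Lcn2* and *Vim*. *Wfdc18* (ENSMUSG00000000983) spans chromosome 11, 83709015 to 83711348, on the plus strand. *Lcn2* (ENSMUSG00000026822) spans chromosome 2, 32384633 to 32388252, on the minus strand, and *Vim* (ENSMUSG00000026728) spans 13573927 to 13582826 of the same chromosome on the plus strand. *Lrg1* (ENSMUSG00000037095) spans chromosome 17, 56119678 to 56122001, on the minus strand. *Slc38a4* (ENSMUSG00000022464) spans chromosome 15, 96994820 to 97055956, on the minus strand. *Spock2* (ENSMUSG00000058297) spans chromosome 10, 60106219 to 60135198, on the plus strand and holds a microRNA gene, *Mir6906*, on the same strand. All 6 are protein coding, and no other annotated gene overlaps them.

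Because the genes were found in the same cells, the 250 bases before their RefSeq starts (GRCm38.p6) were searched for CTTTGA (Tcf/Lef), TTCNNNGAA (Stat), TTGCNNAA (C/EBP) and the NF-kB consensus on both strands, and for TATAAA on the gene's own strand. The windows of *Wfdc18*, on the plus strand at chr11:83708754-83709003, and of the outermost of 3 *Slc38a4* starts, on the minus strand at chr15:97055957-97056206, are shown 5′ to 3′ since they lie wholly outside the annotated genes. Capitals mark the matches found.
Wfdc18: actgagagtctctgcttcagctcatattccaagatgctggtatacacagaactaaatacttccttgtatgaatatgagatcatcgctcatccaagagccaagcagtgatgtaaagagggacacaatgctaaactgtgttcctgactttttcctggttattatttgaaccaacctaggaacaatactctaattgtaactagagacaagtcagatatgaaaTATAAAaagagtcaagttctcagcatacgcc
Slc38a4: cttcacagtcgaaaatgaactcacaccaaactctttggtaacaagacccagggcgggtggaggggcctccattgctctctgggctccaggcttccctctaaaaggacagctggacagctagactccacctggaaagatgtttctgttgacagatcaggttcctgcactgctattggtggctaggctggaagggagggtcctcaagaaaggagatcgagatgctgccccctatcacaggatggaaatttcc
The *Wfdc18* window held TATAAA at base -31 from the start and none of the other motifs, and this *Slc38a4* window held none of the 5. *Lcn2* had a C/EBP match at -216, *Lrg1* and *Spock2* had a Tcf/Lef match at -238 and -133, and *Vim* had TATAAA at -32 and NF-kB matches at -223 and -141. Of the other *Slc38a4* windows, 1 had TATAAA at -208. Of 32851 promoter windows of this length, 13.8% held the Tcf/Lef letters, 9.56% the C/EBP letters, 7.59% TATAAA, 7.02% the Stat letters and 5.93% the NF-kB consensus. No motif was shared by all 6 genes, and a match is a description of letters, not of binding.

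After filtering, 10138 WT, 9601 *LApc* and 14394 *LApcL* cells were kept, with 121037390, 62512610 and 155201388 UMIs (unique molecular identifiers, 1 per captured RNA molecule) and medians of 9711.5, 6133 and 10140 UMIs per cell. The limit on mitochondrial UMIs, given under the processing, was exceeded by 62 of 11453 WT, 2342 of 13214 *LApc* and 413 of 17388 *LApcL* barcodes. Such barcodes were thus most frequent in *LApc*, the library in which the 6 genes were high. Whether this difference between the libraries bears on the levels was not tested beyond the stricter limit described at the end. The libraries shared 214 to 318 cell barcodes per pair. *Lef1* in adenoma-enriched cells, described next, was at 21.2 CPM (UMIs per 1000000 UMIs of the class) in *LApc* and 3.44 in *LApcL*. *Apc* was at 16.6 CPM in WT and at 23.5 and 32.4 in the libraries labelled *LApc* and *LApcL*, so its count does not bear out the labels, and a 3′ count need not register a deleted exon. Cells were clustered without the 6 genes. A cluster led by *Clu*, *Ifitm1*, *Myl9*, *Wfdc18*, *Sox17* and *S100g* held 6 WT, 1244 *LApc* and 8585 *LApcL* cells and is called adenoma-enriched, since WT gave 0.0815% of it after equal weighting of the libraries. It had 10 of 12 Wnt/TA (stem and transit-amplifying) markers raised, and *Epcam* was found in 98.9% of its *LApc* cells and in 99.95% of its *LApcL* cells. *Wfdc18* is among its leading genes, so its level there is a description.

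In *LApc* adenoma-enriched cells, *Wfdc18* was at 1730 CPM (interval 1704 to 1756), from 17055 UMIs in 684 of 1244 cells. The cells differed widely, since the 332 cells with 10 or more UMIs carried 93.6% of the molecules and the highest cell had 321. In *LApcL* adenoma-enriched cells *Wfdc18* was at 30.4 CPM (29.3 to 31.5), from 3182 UMIs in 1129 of 8585 cells. *Wfdc18* was thus found in more *LApcL* cells in number but at 56.9-fold lower level, a log2 ratio of -5.83 (-5.89 to -5.78), and 66 *LApcL* cells had 10 or more UMIs.

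*Lcn2*, the siderophore-binding lipocalin, was at 219 CPM in *LApc* adenoma-enriched cells (2155 UMIs in 231 cells) and at 0.401 CPM in *LApcL* (42 UMIs in 23 cells). The log2 ratio was -9.09 (-9.57 to -8.65), which ranked lowest of the 10114 genes at 5 CPM or more in either library. *Lrg1* was at 169 CPM (1665 UMIs in 281 cells) and 0.401 CPM (42 UMIs in 19 cells), with a log2 ratio of -8.72 (-9.20 to -8.28). These secreted proteins were the most nearly absent of the 6. A single *LApcL* cell held 17 of the 42 *Lcn2* and 18 of the 42 *Lrg1* UMIs.

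*Slc38a4*, the amino acid transporter, was at 105 CPM in *LApc* (1038 UMIs in 366 cells) and at 4.39 CPM in *LApcL* (460 UMIs in 365 cells), with a log2 ratio of -4.58 (-4.74 to -4.42), the smallest difference of the 6. *Vim* was at 196 CPM (1932 UMIs in 365 cells) and 1.31 CPM (137 UMIs in 69 cells), with a log2 ratio of -7.23 (-7.49 to -6.98). *Spock2* was at 49.6 CPM (489 UMIs in 167 cells) and 0.668 CPM (70 UMIs in 30 cells, 30 of them in 1 cell), with a log2 ratio of -6.21 (-6.60 to -5.85). All 6 were at least 4-fold lower in *LApcL*, as the choice of the genes fixes, against 3.80% of the genes measured.

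Over all kept cells, *LApc* against WT, *Wfdc18* was at 288 and 1.75 CPM, *Lcn2* at 37.8 and 0.430, *Lrg1* at 32.2 and 1.10, *Slc38a4* at 17.6 and 0.240, *Vim* at 39.9 and 6.12 and *Spock2* at 9.39 and 0.339. All 6 were at least 4-fold higher in *LApc*, against 1.99% of the 9483 genes measured. The choice of the genes for high counts in *LApc* adenoma cells favours this outcome, so it is a description. *Vim* had the smallest difference, 6.52-fold, and *Wfdc18* the largest, 164-fold. The *Wfdc18* log2 ratio was 7.36, and 8.98 without 1 WT cell that is described at the end. Over all kept cells of *LApcL* against WT, 3.95% of the 9714 genes at 5 CPM or more were at least 4-fold higher. Of the 6, only *Wfdc18* and *Vim* were at 5 CPM or more in either library. Without that floor, 2 of the 6 were at least 4-fold higher. These were *Wfdc18* at 23.9 CPM and *Slc38a4* at 3.32 CPM, whereas *Lrg1* (0.722 CPM) and *Vim* (3.29 CPM) were below their WT levels. Outside the adenoma-enriched cluster, described above, *Lrg1* was at 1.39 CPM in *LApcL* and 1.10 in WT (log2 ratio 0.34, -0.10 to 0.76). *Vim* was there at 7.41 and 6.11 CPM (0.28, 0.10 to 0.46), so neither was below WT in those cells. More cells of a type and more RNA per cell cannot be told apart in the whole-library levels.

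**Figure D1:**
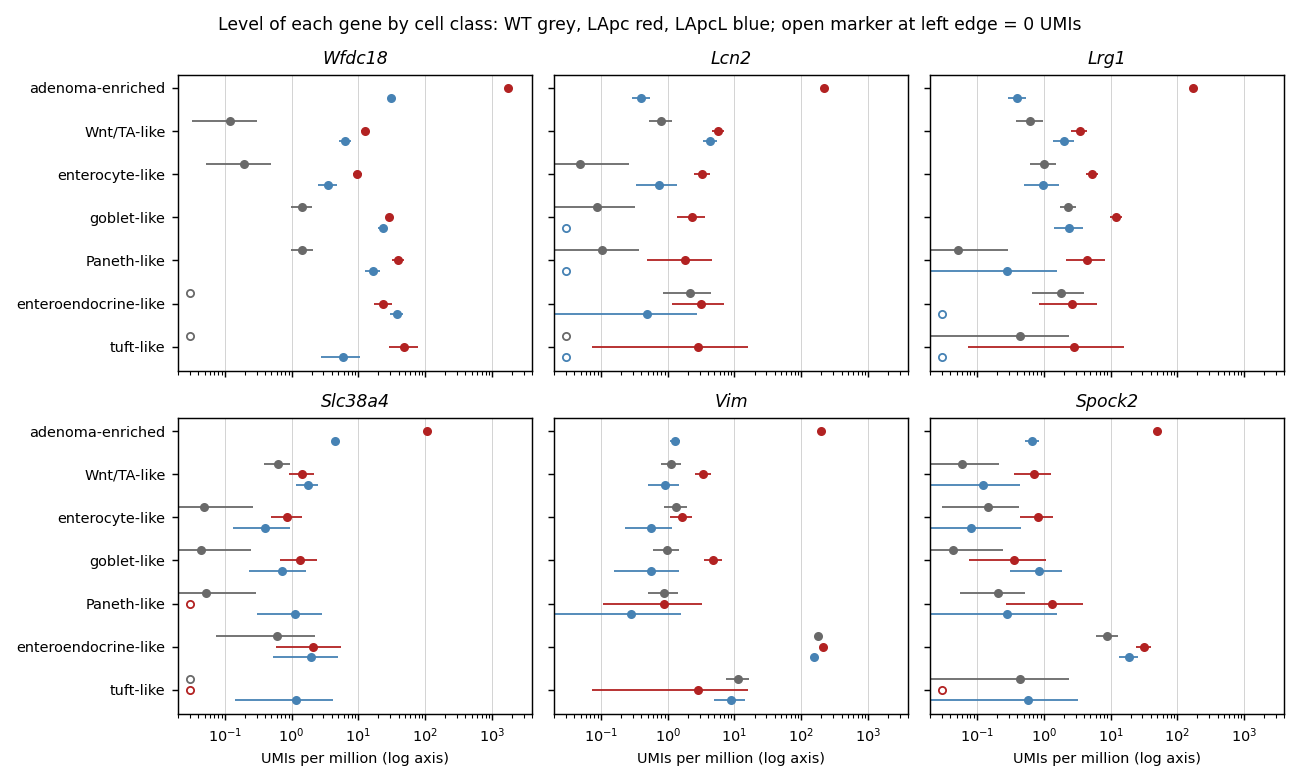
CPM of each gene (log axis) in 7 cell classes of WT (grey), LApc (red) and LApcL (blue), with 95% Poisson intervals; open markers at the left edge had no UMI, and the 6 WT cells of the adenoma-enriched cluster are not drawn. Adenoma-enriched LApc cells stand highest for Wfdc18, Lcn2, Lrg1, Slc38a4 and Spock2, while Vim reaches 214 CPM in enteroendocrine-like LApc cells against 196 in adenoma-enriched ones.

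To ask whether the genes were in the same cells, 3000 UMIs were drawn at random from every cell that had as many, which kept 1211 *LApc* and 8571 *LApcL* adenoma-enriched cells. Of the *LApc* cells, 454 had none of the 6 genes, 346 had 1, 195 had 2, 109 had 3, 77 had 4, 25 had 5 and 5 had all 6. At least 3 genes were found in 17.8% of them (15.7% to 20.1%). In *LApcL* adenoma-enriched cells 2 of 8571 had at least 3 (0.0233%), 7943 had none, and 0 had 4 or more, which allows a share of up to 0.0350%. Of the 10138 WT cells 0 had 3 or more, which allows up to 0.0296%. Outside the adenoma-enriched cluster, 1 of 7418 *LApc* cells had 3. Without thinning, the shares in adenoma-enriched cells were 27.3% in *LApc* and 0.140% in *LApcL*. The genes were chosen for high counts in *LApc* adenoma cells and low ones in *LApcL*, so the difference in these shares is a description.

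**Figure D2:**
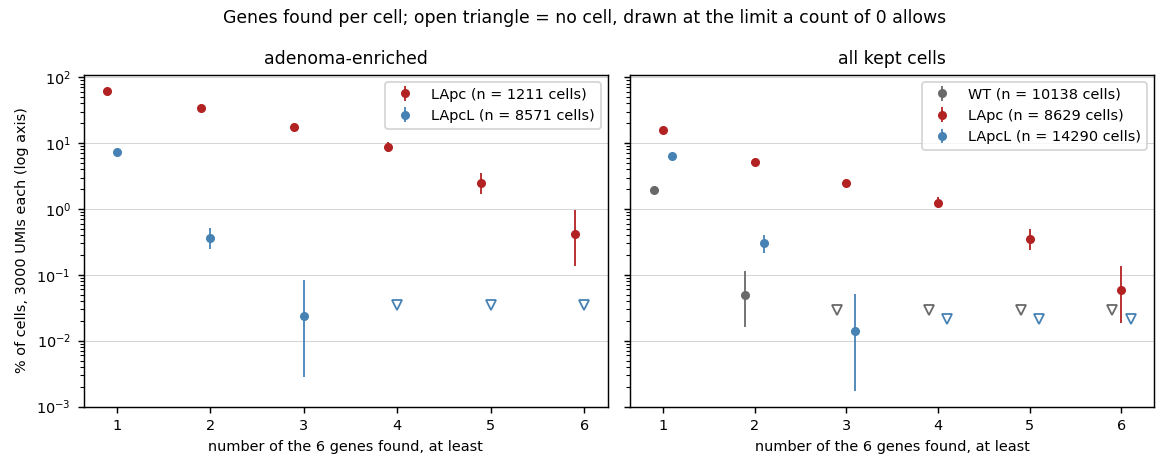
Share of cells (log axis) in which at least 1 to 6 of the genes were found, at 3000 UMIs per cell, with Clopper-Pearson intervals; open triangles mark 0 cells at the limit that a count of 0 allows. LApc adenoma-enriched cells fall from 62.5% with at least 1 gene to 0.413% with all 6, and LApcL cells from 7.33% to 0.0233% with at least 3.

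The 6 genes formed a group of 4 and a pair, a division made after the values were seen. *Lcn2* was found in 167 of the 1211 *LApc* cells, and 67.1% of these held *Lrg1*, against 8.43% of the cells without *Lcn2* (odds ratio 21.9, 14.9 to 32.3). Of the 200 cells with *Lrg1*, 89.5% held *Wfdc18*, against 36.9% of the others (odds ratio 14.3). *Slc38a4* was found in 53.9% of *Lcn2* cells and 13.6% of the others. Over the 6 pairs among *Wfdc18*, *Lcn2*, *Lrg1* and *Slc38a4* the odds ratios ran from 6.27 to 21.9.

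*Vim* and *Spock2* went more with each other than with the rest. Of the 116 cells with *Spock2*, 53.4% held *Vim*, against 18.0% of the others (odds ratio 5.22, 3.52 to 7.74). *Spock2* was found in 8.50% of *Lrg1* cells and 9.79% of the others. The 8 pairs between the group of 4 and the pair had odds ratios from 0.875 to 2.095. The latter was also the median over all 15 pairs. *Vim* had an interval above 1 with each gene of the group, from 1.42 (1.08 to 1.87) with *Wfdc18* to 2.095 (1.47 to 2.99) with *Lcn2*. *Spock2* had one only with *Lcn2* (1.655, 1.02 to 2.69). Counted as each gene against the other 5, *Lrg1* was found in 41.3% of cells with at least 2 of the others and in 1.09% of cells with none of them. For *Vim* these shares were 31.8% and 14.98%, and for *Spock2* 13.0% and 5.61%. For *Slc38a4* they were 40.9% and 5.42%, and for *Wfdc18* 77.7% and 30.5%, so each gene was more often found beside at least 2 of the others.

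**Figure D3:**
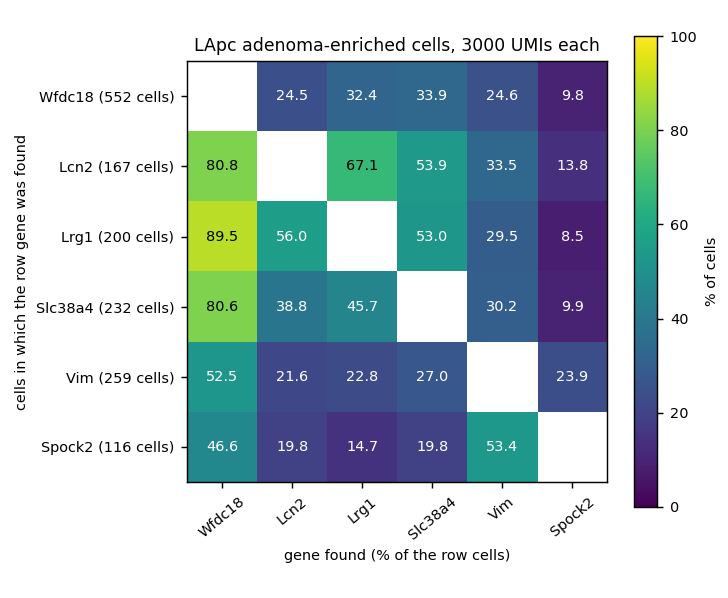
Share of the cells with the row gene (their number in brackets) in which the column gene was also found, in 1211 LApc adenoma-enriched cells of 3000 UMIs each. The block of Wfdc18, Lcn2, Lrg1 and Slc38a4 reaches 89.5%, and the Spock2 row is highest at Vim with 53.4%.

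Leukocyte RNA was measured beside *Vim*, since vimentin is abundant in leukocytes and stroma. Over the 365 *LApc* adenoma-enriched cells with *Vim*, 16 leukocyte markers summed to 276 CPM, led by *Lyz2*, against 27.7 CPM in the 879 cells without *Vim*. The 17 cells with 3 or more leukocyte UMIs held 34 of the 1932 *Vim* UMIs and 0 of the *Spock2* UMIs, and without them *Vim* was at 195 CPM and the odds ratio of *Vim* with *Spock2* was 5.34. The 13 fibroblast and endothelial markers summed to 45.2 CPM in cells with *Vim* and 43.7 CPM in those without, and 8 of the 13 were at 0 in the cells with *Vim*. *Vim* was thus about as high without the cells with 3 or more leukocyte UMIs. Cells with fewer such UMIs stayed in, and whether leukocyte RNA gave part of the *Vim* was not tested.

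Cells with at least 3 of the genes (216) were set against adenoma-enriched *LApc* cells with none (454). The sets had median UMI counts of 8048.5 and 8084, and mitochondrial shares of 3.07% and 3.74%. Since the sets were cut by the 6 genes, what follows is a description. Of 6539 genes at 20 CPM or more in either set, 7.51% were at least 2-fold higher and 5.14% at least 2-fold lower in the cells with 3 or more.

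*Trf*, which encodes transferrin, had 219 UMIs in cells with 3 or more and 5 in cells with none (338 and 3.67 CPM, log2 ratio 6.52, 5.28 to 8.16). *Ltf*, which encodes lactotransferrin, had 107 and 10 UMIs (log2 ratio 4.49), and *Bpifb5* had 142 and 17 (4.13). *Rgs5*, a regulator of G-protein signalling, had 45 and 0 UMIs, at least 31.5-fold higher. *Ntng1*, *Mt4*, *Meis2*, *Col9a3* and *Cd177* were also among the 10 highest, at log2 ratios from 3.63 to 4.81.

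*S100g*, the calcium-binding calbindin-D9k, had 29 UMIs in cells with 3 or more and 13499 in cells with none (44.8 and 9911 CPM, log2 ratio -7.79, -8.37 to -7.27). *Atp4a*, a subunit of the gastric proton pump, had 2 and 926 UMIs (log2 ratio -7.78, -10.83 to -5.93). *Neb*, *Lgals1*, *Pgc*, *Ihh*, *Apoa2*, *Clic6*, *Pcp4l1* and *Ifi27l2a* completed the 10 lowest. *S100g* UMIs were thus nearly all in the cells with none of the 6 genes when these sets are compared.

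**Figure D4:**
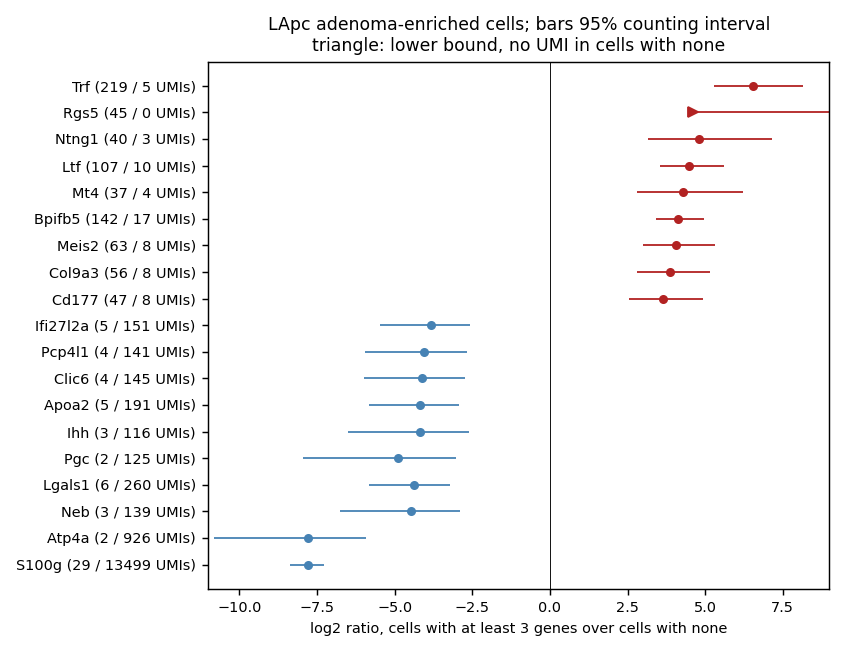
Log2 ratio of UMIs between LApc adenoma-enriched cells with at least 3 of the 6 genes and those with none, for genes among the 10 highest and for the 10 lowest, with 95% counting intervals and UMI counts in brackets. Trf stands highest at 6.52, and S100g lowest at -7.79 beside Atp4a.

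The lists of related genes differed unevenly between these sets. Of the WAP and other extracellular protease inhibitors, 5 of 8 measured were at least 2-fold higher and 0 lower, among them *Slpi* (19 and 0 UMIs), *Wfdc17* (26 and 4) and *Wfdc2* (37 and 26), and the list's median log2 ratio was 1.53 against 0.07 over all measured genes. Of the Wnt antagonists, 4 of 6 were higher, namely *Dkk3* (log2 ratio 3.07), *Wif1* (2.94), *Nkd1* (1.60) and *Notum* (1.39). *Lef1* had 24 and 17 UMIs (log2 ratio 1.57, 0.61 to 2.56). Of 8 stem cell markers 3 were higher, *Lgr5* (1.88), *Prox1* (1.41) and *Sox9* (1.07), and of 5 ectopic crypt and adenoma genes 3 were lower, *S100g*, *Sox17* (-2.57) and *Msx1* (-1.64).

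Of 12 NF-kB and Stat3 signalling genes 2 were higher, *Nfkbiz* (log2 ratio 1.32) and *Socs3* (1.17). Of 6 measured acute phase and antimicrobial genes *C3* was higher (21 and 0 UMIs) and 2 were lower. Of 5 measured mesenchymal and intermediate filament genes, *Cald1* (3.59), *S100a6* (1.27) and *Fn1* (1.15) were higher and *Lgals1* (-4.37) was lower, and 8 of the list's 16 genes other than *Vim* were at 0 in both sets. All 13 measured cell cycle genes were within 2-fold. Of 10 neutrophil markers 6 were at 0 in both sets, and *Ltf* held 107 of the 110 UMIs of the list in the cells with 3 or more; whether neutrophil RNA had a part in *Ltf* was not tested.

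Of 8 measured TGF-beta receptor complex genes and *Lrg1* partners 1 was higher, *Tgfbr2* (log2 ratio 1.15), and of 9 amino acid transporters 1 was, *Slc7a5* (1.00). Of 12 keratin and adhesion genes *Krt23* was higher (1.51) and *Krt20* lower (-1.47). Of 8 fetal-like and regenerative genes *Clu* (1.71), *Spp1* (1.21) and *Il33* (1.13) were higher and *Anxa1* (-1.31) and *Anxa3* (16 and 77 UMIs) lower.

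Across the 1211 *LApc* cells, which share a library and depth, the genes with the highest Pearson r with the summed score of the 6 were *Pglyrp1* (0.54), *Trf* (0.53), *Tmsb4x* (0.42), *Cfi* (0.41), *Plat* (0.40), *Clu* (0.40) and *Phlda1* (0.40), among 6196 genes found in at least 5% of cells. The next 8 were *S100a6*, *Tmsb10*, *Muc6*, *Sypl*, *Ltf*, *Ecscr*, *Nkd1* and *Cyba*. *Pglyrp1* encodes a peptidoglycan recognition protein, *Cfi* complement factor I and *Plat* tissue plasminogen activator. The lowest were *S100g* (-0.40), *Myl9* (-0.38), *Plac8* (-0.31), *Sox17* (-0.30) and *Lgals4* (-0.26). Taken by itself, *Spock2* was highest with *Mt3* (0.56), *Pnliprp2* (0.49) and *Ptn* (0.45), and *Vim* with *Sypl* (0.30), *Fth1* (0.29) and *Nkd1* (0.29), a ranking added after the values were seen.

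Cells were also split by *S100g*, a choice made after its values were seen. Of 801 *LApc* adenoma-enriched cells without an *S100g* UMI, 56.9% held *Wfdc18*, 22.0% *Lrg1* and 26.5% *Vim*. Of the 200 cells with 1 to 9 *S100g* UMIs, 41.0% held *Wfdc18*, 12.0% *Lrg1* and 18.0% *Vim*, and *Spock2* was in 11.5%, as it was without *S100g*. *Lcn2* was found in 10.5% of these cells and in 18.0% of those without *S100g*. Its level was 395 CPM (237 UMIs in 21 cells) and 266 CPM (640 UMIs in 144 cells). The genes and a few *S100g* UMIs were thus counted in the same cells, and the shares were low at high *S100g*. Before thinning, *S100g* was found in 40.1% of all kept *LApc* cells and in 48.0% of the adenoma-enriched ones. Whether RNA free in the suspension gave the few *S100g* UMIs was not tested. Of the 210 cells with 10 or more *S100g* UMIs, 6.67% held *Wfdc18*, 5.24% *Vim* and 0 *Lrg1*, which allows up to 1.43%. In *LApcL* the order was the same for *Wfdc18* (9.61% of 1425 cells without *S100g* and 2.65% of 2449 with 10 or more). *Slc38a4* in *LApcL* had no such order (1.26% and 1.71%, with overlapping intervals).

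**Figure D5:**
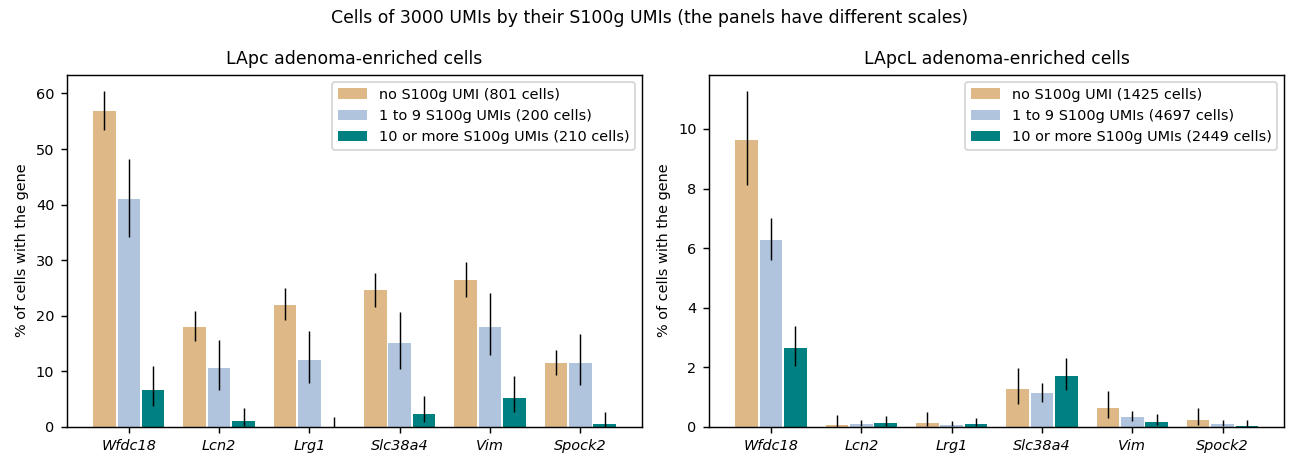
Share of adenoma-enriched cells with each gene, by the S100g UMIs of the cell, at 3000 UMIs per cell, with Clopper-Pearson intervals; the panels have different scales. In LApc every gene is least often found with 10 or more S100g UMIs, and Wfdc18 goes from 56.9% to 6.67%.

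What remained of the co-detection in *LApcL* was sparse, which the choice of the genes for low counts there nearly fixes. Before thinning, 15 of 14394 *LApcL* cells held at least 3 of the genes, 12 of them adenoma-enriched. One of these held 17 *Lcn2*, 18 *Lrg1*, 1 *Wfdc18* and 1 *Slc38a4* UMI among 16773, with 6 *Sox17* and 17 *Epcam* UMIs. *Wfdc18* was in 14 of the 15 cells. In the thinned cells, *Wfdc18* and *Slc38a4* were found together in 21 *LApcL* cells, where the product of their shares gives 6.55.

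The same genes were set beside *Wfdc18* in *LApcL*. The 165 *LApcL* adenoma-enriched cells with 2 or more *Wfdc18* UMIs were set against 8074 with none, and the *LApc* cells (432 and 659) likewise. *Clu* had log2 ratios of 3.95 (3.89 to 4.01) in *LApcL* and 1.75 in *LApc*, *Ltf* 5.90 and 3.59, *Muc6* 4.85 and 2.16, and *S100g* -2.39 and -4.44. Of the 15 genes that correlated highest in *LApc*, 11 had an interval above 0 in *LApcL*, as did 13.9% of the 6190 genes ranked. In *LApc* 15 had one, against 12.0% of the genes ranked. Their choice nearly fixed this, since they were picked in the same *LApc* cells by a score that includes *Wfdc18*. *Tmsb4x*, *S100a6* and *Tmsb10* among them are abundant, so that small ratios lie above 0 (0.84, 1.13 and 0.59 in *LApcL*). The exceptions were *Trf*, *Cfi*, *Phlda1* and *Sypl*, and the *LApcL* interval of *Trf*, with 2 and 29 UMIs, ran from -1.36 to 3.74. *Slc38a4* had 2.64 (1.64 to 3.52) in *LApcL* and 2.69 in *LApc*.

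Taken over all *LApc* cells outside the adenoma-enriched cluster, the 6 genes were well below their adenoma level, although single classes stood higher. *Wfdc18* was at 17.8 CPM there, 1.03% of its adenoma level, *Slc38a4* at 1.12%, *Lcn2* at 1.82%, *Spock2* at 3.75%, *Lrg1* at 3.89% and *Vim* at 5.47%. The choice of the genes for high counts in *LApc* adenoma cells favours these low percentages, so they are a description. Among the named classes *Wfdc18* stood between 9.60 CPM in enterocyte-like and 48.8 CPM in tuft-like cells, and it was at 145 CPM (115 to 180) in an unnamed cluster of 171 *LApc* cells led by *Rpgrip1* and *Apoe*, where *Lcn2* was at 14.5 CPM from 8 UMIs. RNA free in the suspension adds UMIs to cells of every class, and its part in these levels was not tested. In *LApcL*, *Lcn2* was at 0.401 CPM inside the adenoma-enriched cluster and 1.72 outside, and *Lrg1* at 0.401 and 1.39, so neither was above the rest of that library, and 71 of the 129 *Lcn2* UMIs were in Wnt/TA-like cells.

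*Vim* and *Spock2* were also present in enteroendocrine-like cells, the hormone cells of the epithelium, of all 3 libraries. *Vim* was there at 177 CPM in WT (578 UMIs in 123 of 330 cells), 214 in *LApc* (404 UMIs in 130 of 513 cells) and 156 in *LApcL* (321 UMIs in 97 of 351 cells). These cells held 78.0% of the WT *Vim* UMIs and 62.8% of those of *LApcL*, against 16.2% in *LApc*. So the *Vim* that WT and *LApcL* shared lay mainly in these cells, and the *LApcL* level was 1.37-fold below that of *LApc*, against 150-fold in adenoma-enriched cells. *Spock2* was at 8.89, 31.9 and 19.0 CPM (29, 60 and 39 UMIs).

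Within enteroendocrine-like cells *Vim* followed *Tac1*, the tachykinin precursor gene of enterochromaffin cells, with Pearson r of 0.49 over 330 WT cells, 0.52 over 290 *LApc* cells and 0.54 over 326 *LApcL* cells. *Ghrl*, the ghrelin gene, had -0.28, -0.25 and -0.13. In cells with 10 or more *Tac1* and *Tph1* UMIs, a split chosen after the values were seen, *Vim* was at 406, 609 and 402 CPM, and in the others at 98.8, 100.01 and 75.5 CPM. *Spock2* had r of -0.06, 0.02 and 0.00 with *Vim*, and in the same split it was at 2.40, 33.0 and 5.92 CPM (2, 14 and 3 UMIs) against 11.1, 31.5 and 23.2 CPM in the others. It was thus lower beside *Tac1* and *Tph1* in WT and *LApcL*, on few UMIs. Over the 350 enteroendocrine-like cells with *Vim*, leukocyte markers summed to 25.6 CPM and fibroblast and endothelial markers to 7.57 CPM.

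In WT, *Wfdc18* rested on 1 cell. Of its 212 UMIs, 143 were in a single cell of 6573 UMIs with 14.4% mitochondrial UMIs, 28 *Krt8* UMIs, no UMI of the other 5 genes and none of *Sox17*, *Msx1*, *Notum*, *Nkd1*, *S100g*, *Wif1* or *Lef1*. It was 1 of the 6 WT cells in the adenoma-enriched cluster, and its barcode was in neither other library. Without it WT stood at 0.570 CPM, of which 32 UMIs were in goblet-like and 28 in Paneth-like cells. The other WT signals were low, with 27 of 52 *Lcn2* and 21 of 29 *Slc38a4* UMIs in Wnt/TA-like cells and 53 of 133 *Lrg1* UMIs in goblet-like cells.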

How the data were processed

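The authors made 10x Genomics 3′ libraries (reagent kit v2 or v3, not stated per library) and quantified them with Cell Ranger 2.1.1 on mm10. They deposited raw UMI counts for each gene and barcode. As in the study's methods, the 1% of barcodes with the fewest and with the most genes and those above 20% mitochondrial UMIs were removed. Doublets were scored with Scrublet (scanpy 1.11.5), and the highest scores were removed at a rate that grew by 0.8% with each 1000 barcodes, because the automatic threshold called 3 cells in *LApc*. Seurat 5.3.0 (R 4.3.3) integrated the libraries over 956 features without the 6 genes, with 20 components, 20 neighbours and resolution 0.2. A cluster with under 10% WT after equal weighting was called adenoma-enriched. Classes were named when at least 3 markers were raised 1.5-fold (10 CPM added) without markers of another class leading, and clusters 5, 7 and 10 stayed unnamed.

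Counts were summed per library and class as CPM with exact Poisson intervals. Shares have Clopper-Pearson intervals and ratios exact conditional binomial ones, at the 95% level, and 0 counts were set to a limit of 3. Odds ratios had 0.5 added to each entry and carry a normal-approximation interval on the log scale. Cells are not replicates, so no test was run. The scripts were tested on simulated data. The 6 genes, the gene lists and the rules were chosen with earlier results of these data known. Genes were named as the members, as list examples, and as the 15 highest and 5 lowest correlations with the mean of log(1 + UMIs per 10000) over the members, and the 10 highest and 10 lowest ratios at 50 CPM or more, leaving out mt-, Rpl, Rps and Gm symbols; 1 gene of these is not reported here. Alternatives changed the adenoma definition, filters, scaling and thinning. Matches in promoters used RefSeq sequences of all 6 genes.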

Additional observations from a re-analysis of the deposited data

Results flagged for a closer look

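*Wfdc18* differed in direction between cell classes. Its log2 ratio of *LApcL* over *LApc* was 0.68 (0.13 to 1.25) in enteroendocrine-like cells and -5.83 in adenoma-enriched cells. The difference was not tested, since each genotype had 1 library. In enteroendocrine-like cells the ratio rests on 77 UMIs in 17 of 351 *LApcL* cells and 44 UMIs in 33 of 513 *LApc* cells, and 2 *LApcL* cells held 53.2% of the former. With shares of cells thinned to 3000 UMIs the order was the other way, 3.07% in *LApcL* and 6.55% in *LApc*.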

How the results depend on the processing

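Over 120 alternative values, 0 changed direction. Those that are shares of cells cannot fall below 0, so for them this was fixed in advance. For the main results, 82 values stayed within the interval of the reported value, or for the odds ratio within 1.5 times it, and 17 moved. With adenoma cells defined by at least 2 UMIs over *Sox17*, *Msx1*, *Notum* and *Nkd1*, the *LApcL* over *LApc* log2 ratio was -6.38 for *Vim* and -5.90 for *Wfdc18*. For *Wfdc18* it was -5.72 without ribosomal protein and mitochondrial genes and -5.64 as a mean of per-cell CPM. The *LApc* over WT log2 ratio of per-cell means was 6.56 for *Wfdc18*, 4.46 for *Lrg1* and 5.57 for *Slc38a4*. For *Wfdc18* it was 9.11 at a mitochondrial limit of 10% and 8.98 without the WT cell with 143 UMIs. That cell had 14.4% mitochondrial UMIs, so the 10% limit left it out as well. Its removal alone was an alternative added after seeing the data. Leaving out cells with 3 or more leukocyte UMIs was another, and it moved none of the main results. The share of adenoma-enriched cells with at least 3 genes was 8.26% in *LApc* and 0% in *LApcL* when a gene needed 2 UMIs, 11.1% and 0% at 1500 UMIs per cell, and 27.3% and 0.140% without thinning. At least 4 genes were in 8.84% and 0%. The cause of these shifts was not tested beyond the alternatives' own construction. Barcodes left out by the filters held at least 3 of the genes in 74 cases in *LApc*, 5 in *LApcL* and 0 in WT. No paired analysis was possible because each genotype had 1 library and no test was run.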
